A study of Mus musculus with 18 samples.

Results

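The regions described here are BMAL1 peaks of mouse liver that lie within gene bodies and have no counterpart in kidney or heart. A liver peak was taken when it did not overlap any kidney or heart peak by 1 bp or more, and when its centre lay inside an annotated gene of any biotype (RefSeq, GRCm38.p6) and over 1 kb from every gene end. The members were thus selected on the presence and absence of called peaks in these same lists. The rule took 1702 of the 4813 liver peaks (35.4%, exact 95% interval 34.0 to 36.7%), out of 11366 peaks in the 3 tissue lists. All samples came from wild-type C57BL/6 mice of 3 to 6 months under a cycle of 12 h light and 12 h dark; liver, kidney and heart were taken from the same animals at zeitgeber time (ZT) 6, that is 6 h after lights on. After fixation with 1% formaldehyde, BMAL1-bound chromatin was pulled down with an antibody made in chicken and sequenced beside input chromatin. The 18 libraries comprised 3 ChIP and 3 input libraries per tissue, from 3 mice. Peaks were called once per tissue, on its pooled ChIP and input libraries, so no value per animal was used here, no spread between mice could be measured, and nothing was tested. Read depth is unknown. One label of the heart inputs gives kidney as the source while their titles say heart, and its bearing on the heart list was not tested.

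BMAL1 is a basic helix-loop-helix transcription factor that pairs with CLOCK, binds E-boxes and drives the rhythmic transcription of clock genes such as the Per and Cry repressors. In liver, the clock times the storage and release of glucose, the synthesis of lipids and the handling of nutrients. Clock factors bind at gene starts and also at distal elements, many of them inside genes, where tissue-restricted factors keep chromatin accessible.

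Sequence could be read for the members that touched an annotated RefSeq start, since the reference held 300 bases around each start, from 250 before to 50 after it. Of the 1702 members, 49 (2.88%, 2.14 to 3.79%) touched such a window, and all of these starts belonged to the gene that held the peak, so they are starts within the gene body. The sequences printed below are the parts of the peaks inside these windows, from RefSeq (GRCm38.p6), 5′ to 3′ on the strand of the gene. Capitals mark every E-box of the form CANNTG and every CACGTT, on either strand. The first group holds 5 members with scores of 67 to 111, chosen after their values were seen, and shows how they differ in E-box content. It comprises Insig2, which retains the SREBP precursors in the endoplasmic reticulum (chr1:121327975-121328172, minus strand), and Srebf1, which encodes SREBP-1, the activator of lipogenic genes (chr11:60210422-60210617, minus). It also has Slc38a4, a sodium-coupled amino acid transporter (chr15:97031196-97031437, minus), and Apoe, the apolipoprotein E of remnant particles (chr7:19699139-19699282, minus). Tgif1 encodes a homeodomain repressor (chr17:70851783-70851984, minus). The second group holds the 5 members with a canonical CACGTG within 25 bp of the peak centre, in Hopx, a homeodomain-only protein (chr5:77095226-77095467, minus), Gtf2ird2, a TFII-I family member (chr5:134183827-134184068, plus), Net1, a guanine nucleotide exchange factor (chr13:3893532-3893734, minus), Retreg1, an endoplasmic reticulum autophagy receptor (chr15:25942429-25942596, plus), and Sema4b, a semaphorin (chr7:80198346-80198587, plus).
Insig2: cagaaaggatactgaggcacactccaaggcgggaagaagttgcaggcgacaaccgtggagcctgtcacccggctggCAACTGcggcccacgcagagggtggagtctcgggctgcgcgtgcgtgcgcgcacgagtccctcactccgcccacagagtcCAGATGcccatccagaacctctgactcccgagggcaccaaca
Srebf1: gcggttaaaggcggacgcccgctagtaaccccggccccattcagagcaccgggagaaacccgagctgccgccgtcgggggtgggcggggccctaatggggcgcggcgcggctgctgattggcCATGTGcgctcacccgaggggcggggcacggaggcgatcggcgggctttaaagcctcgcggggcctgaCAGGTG
Slc38a4: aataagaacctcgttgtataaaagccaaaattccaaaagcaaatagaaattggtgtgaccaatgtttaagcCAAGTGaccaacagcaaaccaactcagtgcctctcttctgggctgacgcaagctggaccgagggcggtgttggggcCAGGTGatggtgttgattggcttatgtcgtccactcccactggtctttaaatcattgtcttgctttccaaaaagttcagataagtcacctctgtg
Apoe: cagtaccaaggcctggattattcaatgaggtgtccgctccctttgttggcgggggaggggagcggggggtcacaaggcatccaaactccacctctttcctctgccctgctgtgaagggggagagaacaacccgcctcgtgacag
Tgif1: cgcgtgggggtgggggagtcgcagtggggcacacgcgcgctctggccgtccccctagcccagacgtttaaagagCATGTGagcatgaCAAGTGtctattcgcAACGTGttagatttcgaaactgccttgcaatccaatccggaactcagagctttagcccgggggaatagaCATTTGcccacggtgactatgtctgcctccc
Hopx: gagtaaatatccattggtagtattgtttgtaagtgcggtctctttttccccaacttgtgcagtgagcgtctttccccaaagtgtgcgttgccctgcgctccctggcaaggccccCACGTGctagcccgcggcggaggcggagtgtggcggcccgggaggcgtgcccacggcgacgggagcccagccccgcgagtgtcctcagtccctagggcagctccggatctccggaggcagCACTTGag
Gtf2ird2: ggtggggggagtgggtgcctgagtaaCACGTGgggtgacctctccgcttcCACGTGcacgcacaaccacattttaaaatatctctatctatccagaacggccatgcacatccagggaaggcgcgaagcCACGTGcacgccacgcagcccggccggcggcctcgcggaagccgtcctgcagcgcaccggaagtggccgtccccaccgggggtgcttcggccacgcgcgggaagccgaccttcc
Net1: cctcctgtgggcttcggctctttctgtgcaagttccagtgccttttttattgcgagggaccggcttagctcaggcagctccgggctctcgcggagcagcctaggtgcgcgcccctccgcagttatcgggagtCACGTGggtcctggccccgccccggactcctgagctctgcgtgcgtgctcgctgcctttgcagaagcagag
Retreg1: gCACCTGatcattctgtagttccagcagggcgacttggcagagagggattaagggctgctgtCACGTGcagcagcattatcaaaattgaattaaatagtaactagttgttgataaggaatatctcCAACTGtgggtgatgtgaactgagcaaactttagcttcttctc
Sema4b: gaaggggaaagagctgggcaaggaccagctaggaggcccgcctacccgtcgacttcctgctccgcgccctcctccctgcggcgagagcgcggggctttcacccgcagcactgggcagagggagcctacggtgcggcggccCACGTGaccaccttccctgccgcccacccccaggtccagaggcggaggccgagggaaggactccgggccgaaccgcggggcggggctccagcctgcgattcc

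These sequences differed in the E-box at the centre of the peak. In Hopx a CACGTG lay 4 bp from the centre, in Gtf2ird2 the nearest of 3 was 11 bp away, in Net1 it was 14 bp, in Retreg1 19 bp and in Sema4b 23 bp. The peaks of Srebf1 and Tgif1 had no CACGTG, and their nearest E-box was CATGTG, 4 bp from the centre in both. The Insig2 peak, the highest-scoring of the 49 with a score of 111, had CAGATG as its nearest E-box, 38 bp from the centre. Slc38a4 had CAGGTG at 29 bp, and the part of the Apoe peak held by the window had no E-box of the form CANNTG.

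Over all 49 windows touched by members, the canonical E-box CACGTG was found in 10 (20.4%, exact 95% interval 10.2 to 34.3%), against 7.15% of all RefSeq start windows (2349 of 32851). The motif reads the same on both strands. Windows touched by liver gene-body peaks that another tissue shared held it in 32 of 70 cases (45.7%, 33.7 to 58.1%), and those touched by liver peaks present in all 3 tissues in 147 of 282 (52.1%, 46.1 to 58.1%). For peaks of a single tissue the shares were lower. They were 27.4% (90 of 328) for liver-only peaks at gene boundaries, 26.0% (20 of 77) for kidney-only peaks in gene bodies and 15.6% (5 of 32) for heart-only peaks in gene bodies. The interval of the members overlaps those of the other single-tissue classes and, narrowly, that of the shared liver gene-body peaks. It lies below that of the peaks in all 3 tissues, which include peaks at gene boundaries.

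A narrower count gave the same order. Of 36 members whose centre lay in a window, 5 (13.9%, 4.67 to 29.5%) had a CACGTG within 25 bp of it, against 65 of 168 peaks present in all 3 tissues (38.7%, 31.3 to 46.5%). For the shared liver gene-body peaks the count was 15 of 44 (34.1%, 20.5 to 49.9%), an interval that overlaps that of the members. Other motifs were searched on both strands in the same windows. The general form CANNTG, which includes CACGTG, was in 73.5% of the members' windows and 72.3% of all windows. The C/EBP motif TTGCNNAA was in 10.2% against 10.8%, the FOXA motif TGTTTAC in 4.08% against 3.65%, and the AP-1 motif TGANTCA in 10.2% against 7.81%. The HNF4A motif was in 1 window (2.04% against 0.861%). The tandem of 2 E-boxes was in none of the 49, which allows a share of up to 7.25%. The GC-rich SP1 motif GGGCGG was in 51.0% of the members' windows, 35.7% of all windows and 81.2% of the windows of peaks present in all 3 tissues. Median GC content was 58.7% in the members' windows, 52.7% over all windows and 67.3% for the peaks in all 3 tissues, and the part of base composition in these shares was not tested. The remaining members lie away from the annotated start windows, and their sequence was not used here.

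**Figure D1:**
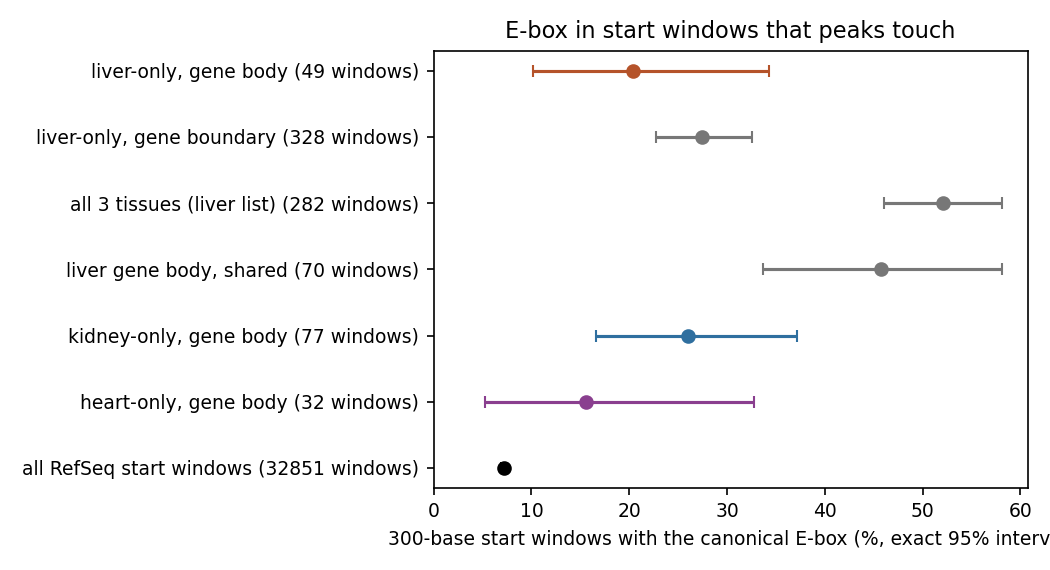
Share of 300-base RefSeq start windows that hold the canonical E-box, by the class of peak that touches them; points are shares and bars exact 95% intervals (counting error only). The members' share of 20.4% lies above the 7.15% of all windows and below the 52.1% of peaks present in all 3 tissues.

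The members were weak to moderate peaks of the liver list. The authors' score, a whole number of unstated meaning that was used only to rank peaks within the list, had a median of 31 among members (95% interval of the median 31 to 32, quartiles 24 and 46, range 17 to 245). Liver-only peaks outside genes had the same median of 31, and those at gene boundaries 36. Among liver gene-body peaks the median was 54 for the 423 peaks shared with 1 other tissue and 100 for the 137 present in all 3. Members made up 9.34% of the top 10% of the list (45 of 482, 6.89 to 12.3%), 24.2% of the upper 50% and 51.1% of the lowest 10%. The rule is tied to score, because a weak site is more easily missing from another list, so these values describe the members and support nothing else. In whole tissue, a weak site in most cells and a strong site in few cells cannot be told apart.

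**Figure D2:**
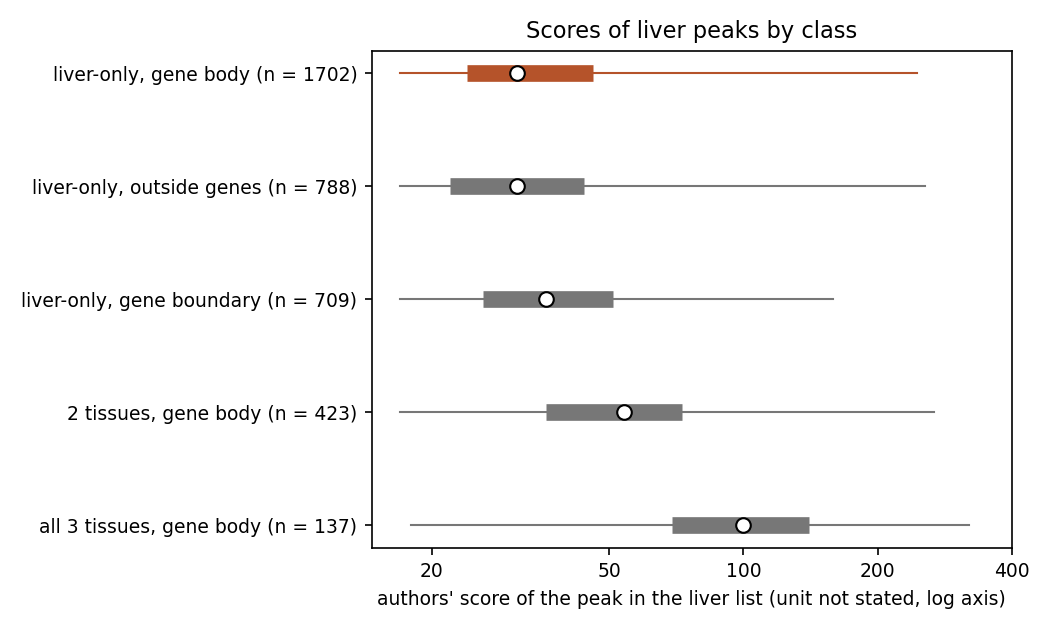
The authors' score (log axis) in 5 classes of liver peaks; circles are medians, thick lines run between the quartiles and thin lines cover the range. Medians run from 31 for the members to 100 for gene-body peaks present in all 3 tissues.

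Some members were among the strong peaks of the list. A score of at least 100 was reached by 43 members (2.53%) and a score of at least 200 by 2. The highest, 245, lay in Nav2, a neuron navigator protein gene (chr7:49351939-49352180), and ranked 21st of the liver list. It was followed by Azin2, an antizyme inhibitor of the polyamine pathway (chr4:128946736-128946977, score 207), by the non-coding Gm40805 (chr10:127945540-127945781, 193), by Fam47e (chr5:92585975-92586216, 186) and by Smyd1, a muscle lysine methyltransferase (chr6:71235196-71235437, 182). The Azin2 peak lay 3.79 kb from a kidney peak and the Smyd1 peak 1.33 kb, whereas the Fam47e peak was 223 kb from the nearest kidney peak and 169 kb from the nearest heart peak.

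Gys2, the liver glycogen synthase, was the only gene with 2 members among the highest 25, at chr6:142451566-142451807 (score 146) and chr6:142471174-142471415 (136), and it held another with a score of 44. The nearest kidney peaks were 56.3 and 36.7 kb away from the 2 stronger sites. Pik3r1, the regulatory subunit of phosphoinositide 3-kinase, had a member scoring 138 that was over 1000 kb from any kidney or heart peak (1023 and 1147 kb). Lpcat3, which remodels phosphatidylcholine in the endoplasmic reticulum, had one scoring 131, and St3gal5, the synthase of ganglioside GM3, one scoring 133. The other protein-coding hosts in the highest 25 were Zfp407 (147), Mtss1 (143), Arhgap26 (140), Rapgef1 (139), Dnase2b (135), Epb41l4b (132), Pde4b (124), Ldlrad4 (118), Syne3 (117), AI661453 (117) and Memo1 (115). Pde4b encodes a phosphodiesterase that degrades cAMP, and Rapgef1 an exchange factor for RAP1. The remaining hosts were the non-coding Gm38988 (148), Lncpint (144), Gm11725 (128) and Gm36228 (115).

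The nearest peak of either other tissue lay at a median of 57.7 kb from the members (quartiles 18.9 and 153 kb). It was within 10 kb for 15.7% of them and within 50 kb for 47.3%. Taken alone, the nearest kidney peak lay at a median of 88.0 kb and the nearest heart peak at 163 kb. A kidney or heart peak lay within 1 kb of 37 members (2.17%), centre to centre. The rule itself took out overlapping peaks, and these distances were not measured for other liver peaks. The strong member of Lncpint was 356 bp from a kidney peak and 398 bp from a heart peak, and that of Gm11725 was 309 bp from a kidney peak. The closest were in Ece1, the endothelin-converting enzyme (215 bp from a kidney peak, score 49), Npm1, or nucleophosmin (223 bp from a heart peak, 38), Exoc6 (223 bp from a heart peak, 62), Epm2a, the glycogen phosphatase laforin (233 bp from a kidney peak, 38), and Gm32379 (246 bp from a kidney peak, 42). On the other side of the limit, the gene-body peaks that just failed by overlap were in Arhgef1 (15 bp of overlap, score 64), D630033O11Rik (18 bp, 37) and Nr2f6 (27 bp, 39). At the limit of 1 kb from gene ends, the nearest members lay in Epm2a (1003 bp), Mrpl23 (1012 bp) and D14Ertd670e (1015 bp), and the nearest peaks left out lay in Sh3d19 (999 bp), Bcat2 (984 bp) and Usf2 (983 bp).

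Within their genes the members were spread along the body. The nearest end of any gene, the host or another, lay at a median of 9.25 kb (95% interval of the median 8.65 to 10.0 kb, quartiles 3.91 and 21.2 kb). Such an end was within 10 kb of 52.4% of the members and within 50 kb of 93.0%. It can belong to a gene inside a longer host, and with protein-coding genes only the median was 14.1 kb. The nearest annotated start of any gene lay at a median of 16.4 kb, and 144 members (8.46%) were within 1 kb of one. For the 1349 members whose host gene had a known strand, the gene was divided into 5 equal parts from its 5′ end. From first to last these held 23.1, 21.0, 19.7, 19.4 and 16.8% of the members. In hosts of at least 50 kb the first part held 24.1% and the others 18.1 to 20.2%. The first part thus held somewhat more than an even share, and no part was empty. Exon and intron boundaries were not used here.

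The host genes were mostly protein-coding and long. Of the members, 1506 (88.5%, 86.9 to 90.0%) lay in a protein-coding gene, 192 (11.3%) in long non-coding RNA genes only and 4 in pseudogenes or other genes, and 82 (4.82%) lay in more than 1 gene. The protein-coding hosts numbered 1186 of the 19300 protein-coding genes longer than 2 kb, the shortest that can hold a member (6.15%). Kidney-only peaks had 859 such hosts (4.45%) and heart-only peaks 725 (3.76%). Host genes had a median length of 66.0 kb, against 19.8 kb for genes without a member. The share of genes with a member was 0.917% at 2 to 10 kb, 3.72% at 10 to 30 kb, 9.28% at 30 to 100 kb, 16.2% at 100 to 300 kb and 21.9% above 300 kb. Per length the order was the opposite, with 2.62 members per Mb in the shortest class and 0.611 per Mb in the longest. Long genes therefore held a member more often and were less densely bound. The kidney-only and heart-only shares also increased from short to long genes, to 17.4 and 19.6% above 300 kb.

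**Figure D3:**
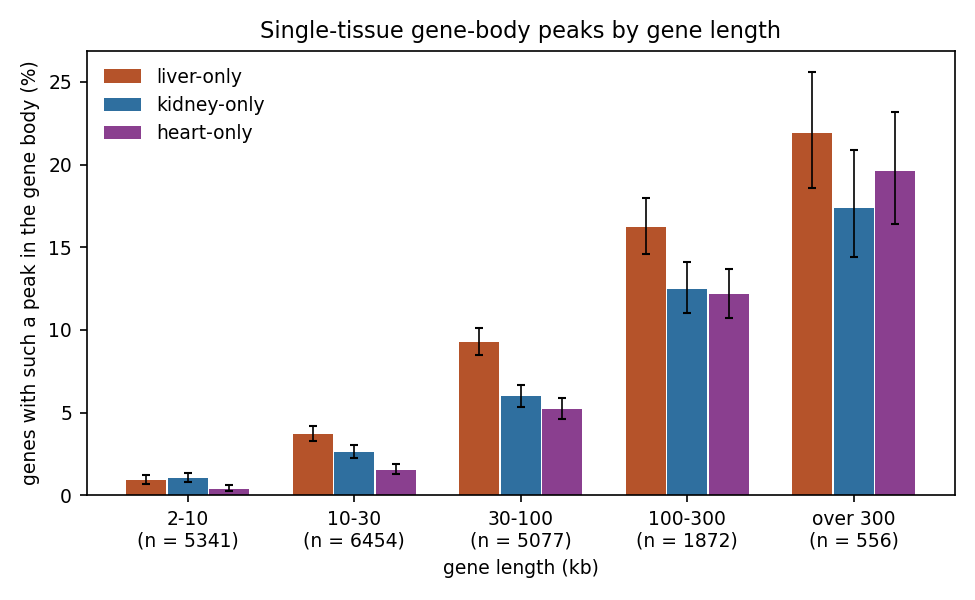
Share of protein-coding genes that hold a liver-only, kidney-only or heart-only gene-body peak (%), by gene length class in kb; bars are shares and error bars exact 95% intervals. The liver-only share climbs from 0.917% in genes of 2 to 10 kb to 21.9% above 300 kb, and the other tissues climb with it.

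Most hosts held a single member, and a small set held clusters. A single member was found in 951 protein-coding genes, 2 in 169, and 3 or more in 66. Arid1b, a subunit of the BAF chromatin remodelling complex, held the most, with 6 (scores 19 to 83) over 172 kb of a 353 kb gene. Lifr, the receptor subunit for leukaemia inhibitory factor, held 5 within 29.2 kb and had no kidney-only, heart-only or shared peak. Its members lay 47.2, 63.5, 69.4, 69.9 and 76.4 kb from the 5′ end with scores of 68, 29, 45, 46 and 30. Col18a1, the collagen chain that yields endostatin, likewise held 5 members (scores 23 to 51) and no other peak in these classes. Nfix, a nuclear factor I transcription factor, held 5 members (25 to 59) and a shared liver peak 0.728 kb from its 5′ end that scored 107, together with a heart-only peak at 71.3 kb (score 29).

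Other clustered hosts differed in what surrounded the members. Nav2 held 5 members, 3 heart-only peaks and 2 shared liver peaks in 651 kb. Pitpnc1, a phosphatidylinositol transfer protein gene, held 5 members with scores of 20 to 38, 3 kidney-only peaks, 1 shared peak and a heart-only peak 0.884 kb from its 5′ end (score 21). Arhgap26, a GTPase-activating protein gene, held 5 members over 586 kb and 1 kidney-only peak (score 19). Epb41l4b (25 to 132) and Lhpp, a histidine phosphatase (45 to 112), held 4 members each without shared or other single-tissue peaks. Tex2 held 4 (34 to 108) with 1 kidney-only and 1 heart-only peak. Among the 10 genes with the most members, the highest densities were 51.8 members per Mb in Nfix, 46.8 in Lifr, 43.7 in Col18a1 and 41.8 in Lhpp. Over all protein-coding genes the density was 1.51. Some shorter hosts outside these 10 were denser, such as Slc2a2 with 4 members in 30.5 kb. The 10 genes were chosen for their number of members, so the densities are a description. Over all members, 145 (8.52%) had another member within 5 kb and 252 (14.8%) within 10 kb.

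**Figure D4:**
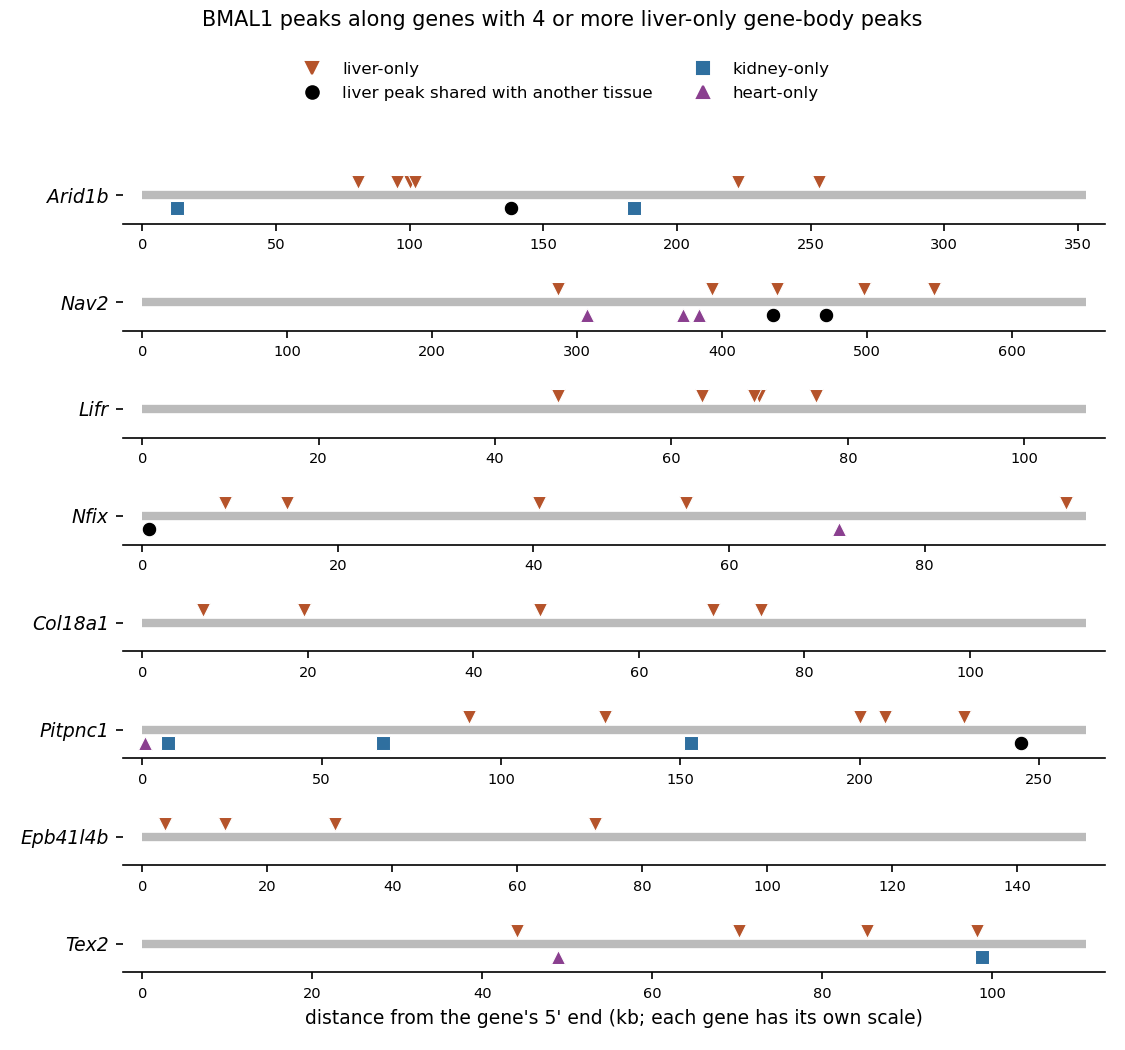
Positions of BMAL1 peaks along 8 of the 10 genes with the most members, those with a known strand, as distance from the 5′ end (kb, a separate scale for each gene); markers above the bar are members, those below it are shared, kidney-only or heart-only peaks. Lifr, Col18a1 and Epb41l4b show members only, whereas Nav2 and Pitpnc1 also hold peaks of other classes.

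Groups of genes with known roles in liver were then examined for members in the gene body. The lists were chosen with earlier results of these data known, and they are described by counts and exact 95% intervals beside the 6.15% of all protein-coding genes over 2 kb. The median length of all these genes was 21.3 kb, and the lists differed from it. Counts within 10 to 100 kb are therefore also given, except for the cell type markers and the kidney and heart genes. In that length class 6.17% of all genes (711 of 11531) held a member, 4.10% a kidney-only and 3.17% a heart-only gene-body peak. With the lists of peaks reduced to their upper 50% by score, 36 genes of all the lists together held a member in place of 83. The protein-coding hosts as a whole then fell from 1186 to 504, and to 849 when members had to lie over 5 kb from gene ends. The 6.15% is therefore not the background of the counts given below under these settings.

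Transcription factors of the liver lineage had the highest share of the lists when all peaks were used. Of 24 such genes, 10 (41.7%, 22.1 to 63.4%) held a member, and 7 of 14 in the 10 to 100 kb class. Klf15, a Krüppel-like factor that governs gluconeogenic amino acid use, had a member scoring 86. Tcf7l2, an effector of Wnt signalling (39), and Creb3l3, a membrane-bound factor of fasting lipid metabolism (33), also held one. Hnf4a, the central hepatocyte nuclear receptor, had 2 weaker members (28 and 22) and was named after its values were seen. The same list had 2 genes with a kidney-only and 2 with a heart-only gene-body peak. A shared liver peak lay inside or within 10 kb of 3 of the 24 (12.5%, against 9.37% of all genes). The count was 2 of the 24 genes when each peak list was reduced to its upper 50% by score, and 5 when members had to lie over 5 kb from gene ends. In neither setting was this share the highest, since 8 and 12 of the 47 lipid genes held a member, whereas it was in the other settings. The interval of 22.1 to 63.4% also overlaps those of all the other lists.

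Nuclear receptors held members in 9 of 35 genes (25.7%, 12.5 to 43.3%), and in 6 of 17 in the 10 to 100 kb class. Ppara, the receptor that drives fatty acid oxidation in fasting, had 3, with scores of 108, 50 and 33 at 36.5, 40.4 and 28.3 kb from its 5′ end. Rara, a retinoic acid receptor (64), Nr1i2, the xenobiotic receptor PXR (53), Nr3c2, the mineralocorticoid receptor (33), and Ppard (30) followed. In this list 6 genes had a kidney-only gene-body peak and 2 a heart-only one. Shared liver peaks lay in or within 10 kb of 10 of the 35 (28.6%, against 9.37% of all genes). In the upper 50% of each peak list, 4 of the 35 held a member.

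Genes of lipid and cholesterol metabolism formed the largest group, with 23 members in 16 of 47 genes (34.0%, 20.9 to 49.3%), and 14 of 37 in the 10 to 100 kb class. Insig2 (111) and Srebf1 (70), whose sequences are printed above, act in the same sterol-sensing pathway, as does Scap, the SREBP escort protein, with 3 weak members (26, 26 and 25). Dgat2, which makes triglyceride, had members scoring 98 and 37, together with 2 kidney-only and 3 shared peaks in or near the gene, and its stronger member was 0.899 kb from a kidney peak. Lrp1, a lipoprotein remnant receptor, had 3 (65, 31 and 25), and Acsl1, a long-chain acyl-CoA synthetase, had 2 (47 and 22). Fatty acid synthesis was represented by Acaca (40) and Acly (29), and glycerolipid synthesis by Gpam (46 and 20) and Agpat2 (45), and these 4 and Scap were named after their values were seen. Kidney-only peaks lay in 3 of the 47 genes and heart-only peaks in 2. In the upper 50% of each peak list, 8 of the 47 held a member.

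In glucose and glycogen metabolism 8 of 35 genes (22.9%, 10.4 to 40.1%) held a member, and 5 of 23 in the 10 to 100 kb class. The hosts included both directions of glycogen turnover, with Gys2 (146, 136 and 44) and, more weakly, the liver phosphorylase gene Pygl (24, named after its value was seen). Slc2a2, the hepatic glucose transporter GLUT2, held 4 (68, 59, 35 and 20) in a gene of 30.5 kb. Pcx, the pyruvate carboxylase of gluconeogenesis (47), Crtc1, a CREB coactivator (37), and Ppargc1b, a coactivator of mitochondrial genes (37), also had one. Shared liver peaks lay in or within 10 kb of 11 of the 35 genes (31.4%, against 9.37% of all genes). A kidney-only gene-body peak lay in 4 of the 35 and a heart-only one in 2. In the upper 50% of each peak list, 5 of the 35 held a member.

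Insulin and growth factor signalling had members in 11 of 37 genes (29.7%, 15.9 to 47.0%). The chain from receptor to kinase was covered by Insr, the insulin receptor (74), Irs1, its substrate (49 and 36), Pik3r1 (138 and 33) and Mtor, the growth-controlling kinase (106). Klb, the co-receptor for FGF21 and FGF15 (79 and 34), had 2. These genes are long, with a list median of 78.3 kb, and in the 10 to 100 kb class 6 of 20 held a member. Kidney-only peaks lay in 5 of the 37 genes and heart-only peaks in 2. Shared liver peaks lay in or within 10 kb of 11 of them (29.7%, against 9.37% of all genes). With the upper 50% of each peak list, 6 of the 37 held a member.

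Hepatic membrane transporters held members in 8 of 38 genes (21.1%, 9.55 to 37.3%), and in 8 of 27 in the 10 to 100 kb class. A kidney-only gene-body peak lay in 1 of the 38 and a heart-only one in 0, where 4.45 and 3.76% of all genes over 2 kb held one. Shared liver peaks lay in or within 10 kb of 7 of the 38 (18.4%, against 9.37% of all genes). Slc38a4 had 4 (92, 68, 45 and 41) and Slc7a2, a cationic amino acid transporter, had 3 (86, 34 and 18). Slco2a1, a prostaglandin transporter (45 and 21), Slc39a14, which imports zinc and iron (42), and Slco2b1, an organic anion transporter (39), followed. Genes of plasma proteins made in liver held members in 8 of 52 (15.4%, 6.88 to 28.1%), and in 6 of 32 in the 10 to 100 kb class. The hosts were led by Apoe (71), Fetub (49), the coagulation factor gene F10 (46), Tfr2, a hepatic iron sensor (39), and Trf, or transferrin (37). This list had a median length of 14.7 kb and no kidney-only or heart-only gene-body peak. Over all genes of 10 to 30 kb those shares were 2.62 and 1.56%, at which a list of this size can hold 0. With the upper 50% of each peak list, 5 transporter and 3 plasma protein genes held a member, and with members over 5 kb from gene ends 7 and 2.

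Amino acid and urea metabolism had members in 4 of 30 genes (13.3%, 3.76 to 30.7%), in Gls2, the liver glutaminase (42), Mat1a, which makes S-adenosylmethionine (32), Bckdhb (27) and Cps1, the first enzyme of the urea cycle (25). Drug and xenobiotic metabolism had 4 of 42 (9.52%, 2.66 to 22.6%). Por, the electron donor of the cytochromes P450, had a member scoring 37, Aox3 had 2 (36 and 20), Fmo5 had 4 (32, 30, 28 and 22) and Gstt1 had 1 (24). Among genes of 10 to 100 kb, 2 of 23 in the amino acid list and 4 of 30 in the drug list held a member. The intervals of both lists include the 6.15% of all genes, and with the upper 50% of each peak list 1 gene of each held a member.

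Of 20 clock genes and outputs, 3 (15.0%, 3.21 to 37.9%) held a member, an interval that includes the 6.15% of all genes. Among those of 10 to 100 kb, 2 of 12 held one. In the wider window of the gene and 10 kb on either side, 17 of the 20 had a liver peak shared with another tissue, against 9.37% of all genes. The members were weak, with scores of 40 and 31 in Hlf, a PAR bZIP factor of clock output, 35 in Per2, and 31, 23, 17 and 17 in Rora, the receptor that activates Arntl.

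Markers of other cell types that a liver holds were counted in the same way, and the interval of each list includes the 6.15% of all genes. No member lay in the 13 Kupffer cell or the 14 stellate cell markers over 2 kb, which allows shares of up to 24.7 and 23.2%. Among 14 endothelial markers, Eng (32) and Stab2 (30) each held 1, and 1 of 9 cholangiocyte markers did. Of 19 kidney genes 1 held a member, Slc12a3 (29), and 3 held a kidney-only gene-body peak. Of 17 heart genes 1 held a member, Csrp3 (35), and 2 held a heart-only one. All the lists together contained 441 different genes over 2 kb.

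**Figure D5:**
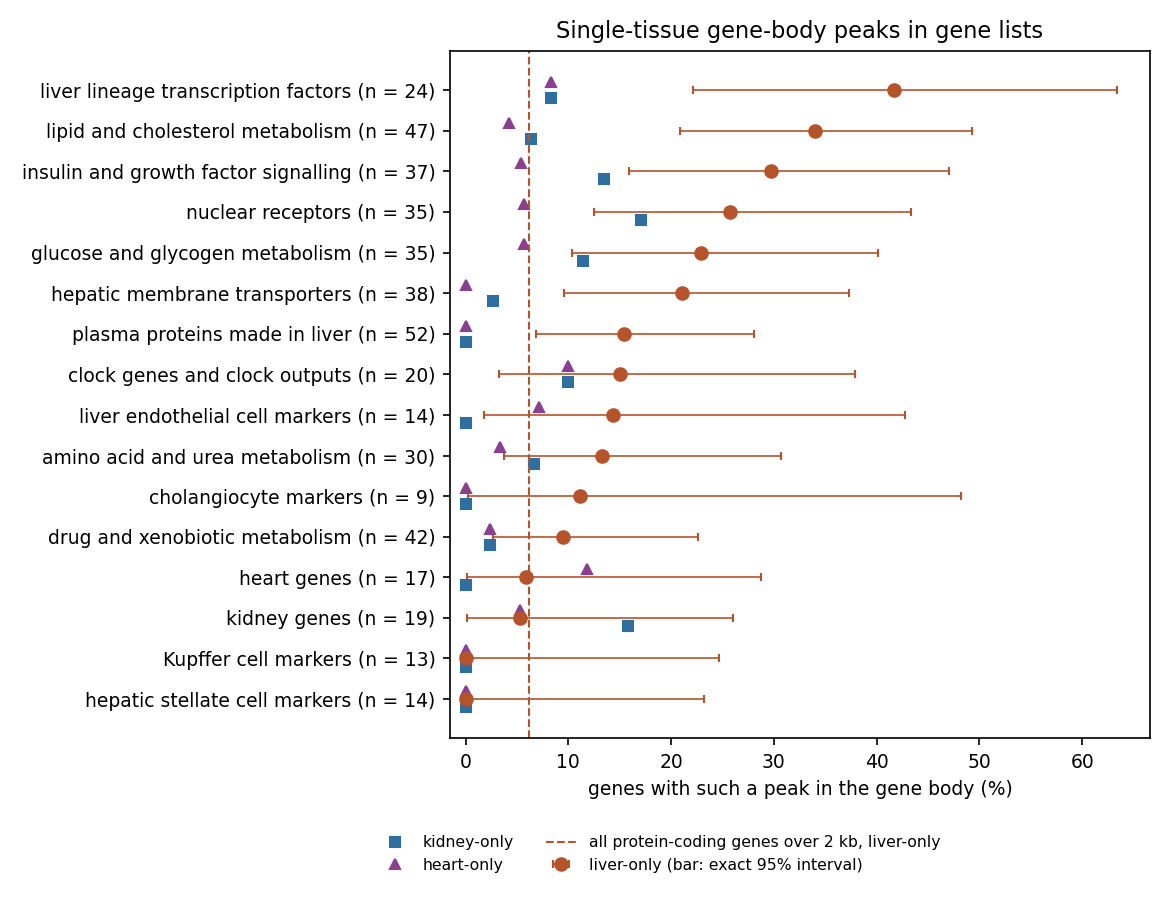
Share of the genes of each list (over 2 kb, number in brackets) that hold a liver-only, kidney-only or heart-only gene-body peak; bars are exact 95% intervals for liver-only peaks and the dashed line is the 6.15% of all protein-coding genes. Liver transcription factors (41.7%) and lipid genes (34.0%) lie highest, and Kupffer and stellate cell markers are at 0.

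Host genes also held shared BMAL1 peaks more often than genes without a member. A liver peak shared with kidney or heart lay inside or within 10 kb of 231 of the 1186 hosts (19.5%, 17.3 to 21.8%), against 8.71% of the other genes (1577 of 18114), and 9.37% over all genes. A kidney-only gene-body peak lay in 171 hosts (14.4%, 12.5 to 16.5%) and a heart-only one in 116 (9.78%), against 4.45 and 3.76% of all the genes. Hosts are longer, so the comparison was repeated by length. In genes of 10 to 30 kb 13.8% of hosts and 9.17% of the others had a shared peak, at 30 to 100 kb 17.4 and 9.38%, at 100 to 300 kb 24.7 and 9.44%, and above 300 kb 23.8 and 5.07%. At 2 to 10 kb the shares were 24.5 and 7.65%, so hosts had the higher share in every length class. Kidney-only peaks lay in 52 of 471 hosts (exact interval 8.36 to 14.2%) and 5.47% of the others at 30 to 100 kb, and in 22.4% (17.8 to 27.5%) and 10.6% at 100 to 300 kb. Heart-only peaks were more frequent in hosts above 100 kb, with 18.8% (14.5 to 23.6%) and 10.9% at 100 to 300 kb and 27.9% (20.1 to 36.7%) and 17.3% above 300 kb. At 30 to 100 kb they lay in 4.46% of hosts (2.78 to 6.73%) and 5.30% of the others. Any kidney peak lay inside or within 10 kb of 36.8% of hosts and 18.8% of the other genes. For any heart peak the shares were 23.9 and 12.1%. Neither kind lay there in 629 hosts (53.0%, 50.1 to 55.9%), a share that was not counted for the other genes.

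Among single-tissue peaks, the gene body was a common position in every tissue. It held 53.2% of liver-only peaks (1702 of 3199, 51.5 to 54.9%), 45.9% of kidney-only peaks (1069 of 2327, 43.9 to 48.0%) and 51.7% of heart-only peaks (847 of 1637, 49.3 to 54.2%). The same position takes up 43.8% of the annotated span of the genome (1143 of 2612 Mb). The kidney interval therefore lies below that of liver, and the heart interval overlaps it. With each list reduced to its 1000 highest-scoring peaks, the gene body held 52.4% of single-tissue peaks for liver, 35.6% for kidney and 39.0% for heart, so the closeness of liver and heart was lost. Among gene-body peaks, those of the liver alone touched an annotated start window in 2.88% of cases, kidney-only ones in 6.27% (4.89 to 7.89%), heart-only ones in 3.54% (2.40 to 5.02%) and shared liver ones in 11.1% (8.59 to 14.0%). Their median distance to the nearest annotated start was 16.4, 13.6, 19.2 and 8.52 kb in the same order. The members lay farther from starts than the shared peaks of the same tissue, and the heart-only peaks lay at least as far.

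Members were found on all autosomes. Their number, including those in non-coding genes only, was divided by the length of protein-coding genes on each chromosome. This gave 1.35 to 2.47 per Mb on the autosomes, with the highest value on chromosome 19. The X chromosome held 5 members (0.109 per Mb in the same measure). Its share of the members was 0.294% (0.0955 to 0.684%), and its share of kidney-only and heart-only gene-body peaks was 0.468 and 0.472%. The X chromosome was sparse in the whole lists too, with 0.810% of all liver peaks (39 of 4813, 0.577 to 1.11%). Its shares of all kidney and all heart peaks were 1.04 and 0.913%. Of the long non-coding host genes, Lncpint and 1700112D23Rik held the most members, with 4 each and best scores of 144 and 68; these were named for that count.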

How the data were processed

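BMAL1 ChIP-seq peaks of liver, kidney and heart were read from 3 lists, 1 per tissue, for which the authors pooled that tissue's ChIP and input replicates, per the labels. The submitters' processing notes name Bowtie2, HOMER, SAMtools and mm10, without roles or versions. Liver peaks were 242 bp wide. The score that the authors deposited with each peak is a whole number whose meaning is not given in the sources used here. It served only to rank and summarise peaks of the same list.

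Peaks were classed by overlap of at least 1 bp and by the position of their centre against RefSeq genes (GRCm38.p6) in Python 3.11.15 with pandas 2.3.3 and numpy 2.4.6; strand came from RefSeq start windows. Scripts were tested on simulated data with planted peaks and motifs. Shares have exact Clopper-Pearson 95% intervals (scipy 1.17.1) and medians have order-statistic intervals. These cover counting error only and treat peaks as units, although neighbouring peaks are not independent. No value per animal was used here, so no test was run. E-boxes had been planned for whole peaks and were counted in start windows, since no genome was used here.

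The members and lists were chosen with earlier results of these data known. Genes were named by rule: the 25 highest-scoring members, the 10 genes with the most members, the 5 best genes per list and the peaks nearest each limit. The printed sequences and the other names were chosen after their values were seen. All genes of the lists matched a symbol, and a few that the rule selects are not reported here. Alternatives were the overlap rule, the upper 50% or top 1000 peaks of each list, 500 bp or 5 kb from gene ends, and protein-coding genes alone. Leaving out members near annotated starts was added after seeing the data.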

Additional observations from a re-analysis of the deposited data

How the results depend on the processing

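No paired analysis was possible because each list pools all replicates of a tissue, and for the same reason no replicate could be left out. Depth is unknown, so a peak absent from a list was not called there, which does not show absence of binding. Defining shared peaks by centres within 1000 bp or by 50% overlap moved none of the summary values beyond their intervals. With fewer peaks, by construction, the upper 50% of each list and the top 1000 left 663 and 205 members, 504 and 167 host genes, median scores of 55 and 87, and 36 and 14 list genes with a member. The share inside gene bodies became 41.6 and 35.6% in kidney and 39.7 and 39.0% in heart, and the cause was not tested. In the top 1000 the median distance to a gene end was 7.31 kb and the share of hosts with a shared peak 11.4%. A limit of 500 bp or 5 kb changed the share to 57.3 or 36.7% in liver, 52.0 or 29.4% in kidney and 56.5 or 36.4% in heart, and the median distance to 8.31 or 15.1 kb, as the limit itself requires. With protein-coding genes only, the liver share was 48.8% and the distance 14.1 kb. Without members within 1 kb of an annotated start, an alternative added after seeing the data, the liver share was 48.7%. The E-box share of the windows stayed within the interval of its main value in all the settings run; it was not run without the members near starts, which removes those windows. All 25 highest-scoring members kept their place except under centres within 1000 bp (23 kept), 5 kb (17), protein-coding genes only (20) and without members near starts (22). Among the other values, mostly gene list counts, 14 of 17 moved in the upper 50% and in the top 1000, and 6 at 5 kb.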
